A study of Arabidopsis thaliana with 9 samples.

Results

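The 10 genes described here serve iron nutrition in Arabidopsis thaliana: the regulator genes BHLH38 (AT3G56970), BHLH39 (AT3G56980), BHLH100 (AT2G41240), BHLH101 (AT5G04150), FIT (AT2G28160), PYE (AT3G47640) and BTS (AT3G18290), the uptake genes IRT1 (AT4G19690) and FRO2 (AT1G01580), and the ferritin gene FER1 (AT5G01600). They were picked by locus identifier, 10 of the 32823 genes in the files, and all 10 were among the 19180 genes tested. Messenger RNA was sequenced from untreated seedlings at 2 weeks, grown in long days, of 3 genotypes with 3 libraries each: the mutant cyp71-3, the mutant se-1 and the wild-type accession Col-0. CYP71 is a nuclear cyclophilin. SE (SERRATE) acts in the processing of microRNA precursors, and se-1 is known as a partial loss-of-function allele. The labels give no more on either allele, and each mutant is 1 line. Nothing says that libraries of a genotype came from separate cultures, so the spread behind each p-value may be technical.

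Arabidopsis takes up iron in the root epidermis. Protons and coumarins bring ferric iron into solution, the reductase FRO2 reduces it, and the transporter IRT1 carries ferrous iron into the cell. The transcription factor FIT, paired with a bHLH protein of subgroup Ib (bHLH38, bHLH39, bHLH100 or bHLH101), drives this uptake, and other bHLH proteins, such as ILR3, drive the Ib genes. The ubiquitin ligase BTS removes some of those activators, PYE is a bHLH repressor of iron distribution genes, and ferritins store iron in plastids. Transcripts of the Ib genes, PYE, BTS, IRT1 and FRO2 are known to accumulate when iron is short, and that of FER1 when iron is plentiful.

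Values are the deposited FPKM (fragments per kilobase of transcript, scaled to sequencing depth), which are per length and can be compared between genes. Fold changes are differences of log2(FPKM + 1) ± SE from limma, two-sided, with p adjusted over the 19180 genes, and a gene is called at an adjusted p below 0.05. The added 1 makes the change of low genes smaller than the ratio of their FPKM. CYP71 (AT3G44600) was at 3.70, 4.41 and 4.16 FPKM in cyp71-3, against 16.89, 17.57 and 19.10 in Col-0. SE (AT2G27100) was at 28.97, 27.18 and 25.51 FPKM in se-1, against 30.72, 33.25 and 31.08 in Col-0. Libraries correlated across genes at r of at least 0.982 within a genotype and at most 0.963 between genotypes. The deepest library, estimated from the steps between the lowest values, was 1.56 times the shallowest. Chloroplast-encoded transcripts made up 0.0313% to 3.44% of a library's FPKM sum, with a share above 1% in 1 cyp71-3, 2 se-1 and 1 Col-0 libraries. All 26 listed markers of root and leaf cells were above 0 in every library.

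In Col-0, FER1 had the highest level of the 10 genes (129 ± 2.23 FPKM, SD, n = 3), followed by BTS (104 ± 2.84) and PYE (35.6 ± 0.16). BHLH101 (14.1 ± 0.50), BHLH100 (14.0 ± 0.75), IRT1 (12.6 ± 1.13) and BHLH39 (12.0 ± 0.47) came next. Libraries of each overlapped those of the next in that order, but those of BHLH100 and BHLH101 all lay above those of BHLH39. FIT (9.52 ± 0.29) and BHLH38 (9.25 ± 0.18) overlapped as well, and FRO2 was lowest (5.34 ± 0.29). In both mutants IRT1 ranked behind FER1 and BTS alone, at 38.2 ± 0.77 FPKM in cyp71-3 and 56.0 ± 1.73 in se-1.

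**Figure D1:**
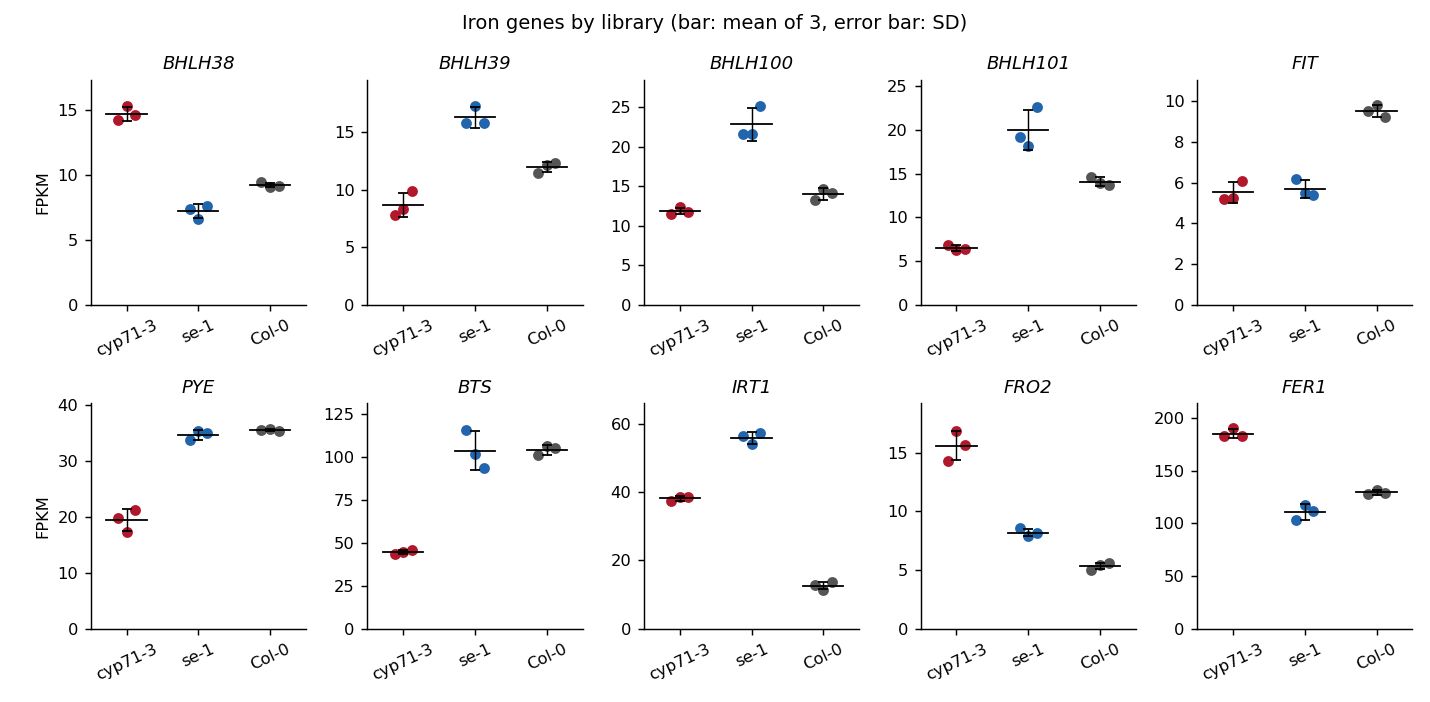
FPKM of the 10 iron genes in each library (points), by genotype, with the mean of 3 libraries (long bar) and its SD (error bar); each panel has its own scale from 0. IRT1 and FRO2 lie above Col-0 in both mutants and FIT below, while BTS and PYE average 44.6 and 19.5 FPKM in cyp71-3, below every other library.

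In cyp71-3, IRT1, FRO2, BHLH38 and FER1 rose and BTS, BHLH101, PYE, FIT, BHLH39 and BHLH100 fell, so that all 10 genes were called (4 higher, 6 lower). The same rule called 63.3% of all genes tested, 30.6% higher and 32.7% lower, so the count alone sets these genes little apart. The libraries of cyp71-3 and Col-0 did not overlap for any of the 10, which held for 70.1% of all genes. In se-1, IRT1, BHLH100, FRO2, BHLH101 and BHLH39 rose, FIT, BHLH38 and FER1 fell, and BTS and PYE did not pass. The 8 calls compare with 50.2% of all genes (25.1% higher and 25.1% lower), and the libraries of se-1 and Col-0 did not overlap for 9 of the 10, against 56.7% of all genes. Set directly against each other, cyp71-3 was higher than se-1 for BHLH38, FRO2 and FER1 and lower for BHLH101, BTS, BHLH100, BHLH39, PYE and IRT1. FIT did not pass. Those 9 calls compare with 62.2% of all genes (30.0% higher and 32.2% lower), and non-overlapping libraries, found for 9 of the 10, with 66.2%. Both mutants are set against the same Col-0 libraries, so their values are given side by side and their difference is taken from the direct comparison. The median log2 fold change of the 10 genes was -0.33 in cyp71-3 and 0.20 in se-1, beside -0.01 and 0.00 for all genes.

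**Figure D2:**
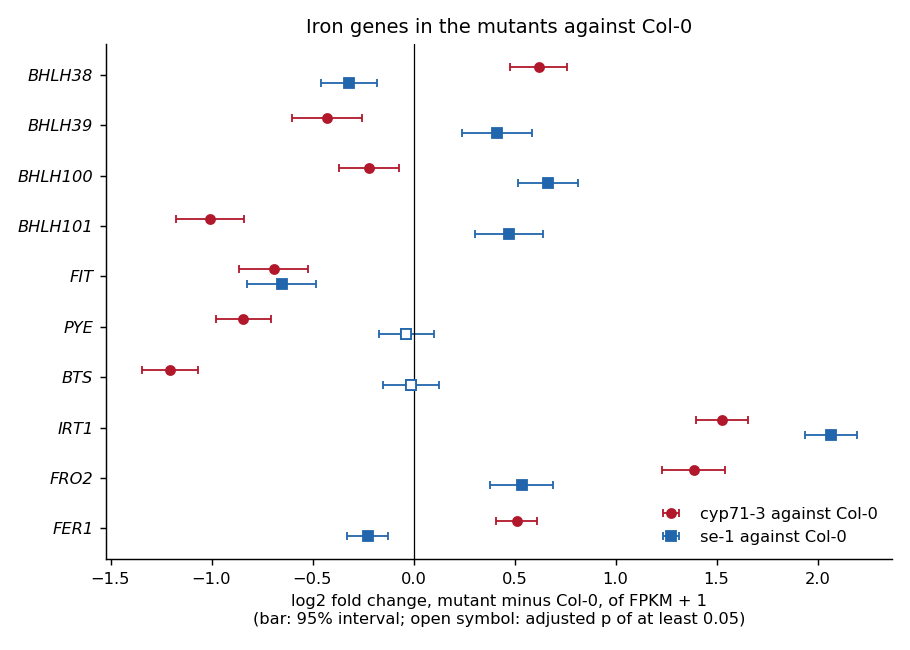
Log2 fold change of FPKM + 1 against Col-0 for the 10 iron genes, by mutant, with 95% intervals; open symbols did not pass an adjusted p of 0.05. BHLH38 and FER1 lie above 0 in cyp71-3 and below it in se-1, and BHLH39, BHLH100 and BHLH101 the other way round.

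The uptake genes rose in both mutants, and IRT1 had the largest rise of the 10 in each. IRT1 (chromosome 4, chr4:10707344-10709015, plus strand, 3 exons, TAIR10.1) encodes the main root importer of ferrous iron. It was at 37.30, 38.65 and 38.60 FPKM in cyp71-3, 56.33, 54.07 and 57.47 in se-1 and 12.89, 11.40 and 13.61 in Col-0. The 3 genotypes did not overlap, and se-1 was highest. Mean FPKM was 3.02 times that of Col-0 in cyp71-3 (log2 fold change 1.53 ± 0.06, limma adjusted p = 2.27e-09) and 4.43 times in se-1 (2.07 ± 0.06, limma adjusted p = 6.54e-10). Directly compared, cyp71-3 lay below se-1 (-0.54 ± 0.06, limma adjusted p = 1.03e-05). FRO2 (chromosome 1, chr1:208995-213082, plus strand, 8 exons) encodes the root ferric reductase. It was at 14.33, 16.83 and 15.68 FPKM in cyp71-3, 8.55, 7.90 and 8.12 in se-1 and 5.01, 5.46 and 5.56 in Col-0. Here too the genotypes did not overlap, but cyp71-3 was highest. The level was 2.92 times that of Col-0 in cyp71-3 (1.39 ± 0.07, limma adjusted p = 2.29e-08) and 1.53 times in se-1 (0.54 ± 0.07, limma adjusted p = 8.25e-05). The mutants differed by 0.85 ± 0.07 (limma adjusted p = 1.25e-06), higher in cyp71-3.

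Most listed markers of the cells that take up iron were higher than in Col-0 in both mutants, as IRT1 and FRO2 were. The 9 listed markers of root epidermis and hairs summed to 43.25 to 46.70 FPKM in cyp71-3, 42.10 to 47.56 in se-1 and 18.52 to 19.95 in Col-0. In cyp71-3, 7 of 9 were higher and 0 lower, and in se-1, 8 of 9 were higher and 0 lower, where 30.6% and 25.1% of all genes were higher. The hair-cell expansin gene EXPA7 averaged 11.8 ± 0.08 FPKM in cyp71-3, 6.95 ± 1.13 in se-1 and 3.38 ± 0.42 in Col-0. It was the 1 marker of this list called higher in cyp71-3 than in se-1, while 2 were lower and 6 did not pass. In that comparison 30.0% of all genes were higher and 32.2% lower. Markers of inner root tissue and the root cap took another course: the 9 listed genes summed to 22.23 to 23.62 FPKM in cyp71-3, 45.19 to 50.36 in se-1 and 40.16 to 44.55 in Col-0. Of the 6 tested, 5 were lower in cyp71-3, among them CASP1, a gene of the Casparian strip, and 3 were higher and 1 lower in se-1. The cap gene SMB did not pass in cyp71-3, at 0.62 ± 0.24 FPKM against 0.64 ± 0.20 in Col-0 (limma adjusted p = 0.906). The cap genes BRN1 and BRN2 were not tested. BRN1 averaged 1.21 FPKM in cyp71-3 and 0.85 in Col-0, and BRN2 0.45 and 0.60. Of all genes, 32.7% were lower in cyp71-3, and 25.1% were higher and 25.1% lower in se-1. The 8 green leaf markers summed to 41160.63 to 42109.49 FPKM in cyp71-3, 43638.89 to 48540.28 in se-1 and 50327.71 to 51782.95 in Col-0, with 7 lower in cyp71-3 (32.7% of all genes) and 6 lower in se-1 (25.1%). The part of these cell types in the iron gene results was not tested. In RNA of seedlings, fewer cells of a type and less RNA per cell cannot be told apart.

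**Figure D3:**
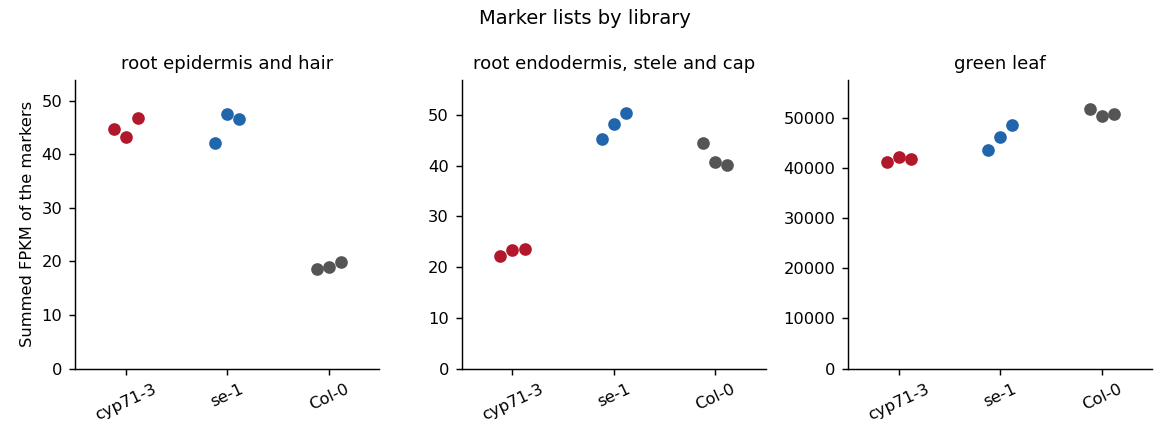
Summed FPKM of the markers of root epidermis and hairs (9 genes), of root endodermis, stele and cap (9 genes) and of green leaf (8 genes) in each library, by genotype, from 0. Epidermis and hair markers are at 42.10 FPKM or more in every mutant library and at most 19.95 in Col-0. The sum of the inner root and cap markers is lowest in cyp71-3, which does not hold for each cap gene.

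FIT (chromosome 2, chr2:12004658-12006276, plus strand, 4 exons), the activator of both uptake genes, had less transcript in either mutant. It was at 5.22, 5.25 and 6.10 FPKM in cyp71-3, 6.19, 5.51 and 5.39 in se-1 and 9.54, 9.80 and 9.22 in Col-0. The mutants overlapped each other and lay below every Col-0 library. FIT fell by 0.69 ± 0.08 in cyp71-3 (limma adjusted p = 1.27e-05) and by 0.65 ± 0.08 in se-1 (limma adjusted p = 3.38e-05), where IRT1, FRO2 and most of the epidermis markers were higher. Between cyp71-3 and se-1 the difference was -0.04 (95% interval -0.21 to 0.13, limma adjusted p = 0.681).

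The Ib bHLH genes encode the partners of FIT, and 3 of the 4 fell in cyp71-3 and rose in se-1. For comparison, 32.7% of all genes were lower in cyp71-3 and 25.1% higher in se-1. BHLH101 (chromosome 5, chr5:1138410-1139633, minus strand, 3 exons) was at 6.84, 6.25 and 6.37 FPKM in cyp71-3, 19.20, 18.17 and 22.56 in se-1 and 14.63, 13.87 and 13.68 in Col-0. The genotypes did not overlap: it fell in cyp71-3 (-1.01 ± 0.08, limma adjusted p = 4.98e-07) and rose in se-1 (0.47 ± 0.08, limma adjusted p = 0.000342). BHLH100 (chromosome 2, chr2:17198037-17199454, minus strand, 2 exons) was at 11.56, 12.35 and 11.79 FPKM in cyp71-3, 21.67, 21.69 and 25.23 in se-1 and 13.23, 14.70 and 14.18 in Col-0. Its rise in se-1 was 0.66 ± 0.07 (limma adjusted p = 9.83e-06). Its fall in cyp71-3 was small (-0.22 ± 0.07, limma adjusted p = 0.0138) and no longer passed without Col-0 replicate 2 (-0.19, limma adjusted p = 0.0539). BHLH39 (chromosome 3, chr3:21086390-21087710, minus strand, 2 exons) was at 7.78, 8.33 and 9.85 FPKM in cyp71-3, 15.74, 17.26 and 15.74 in se-1 and 11.44, 12.10 and 12.34 in Col-0, again without overlap. It fell by 0.43 ± 0.08 in cyp71-3 (limma adjusted p = 0.000571) and rose by 0.41 ± 0.08 in se-1 (limma adjusted p = 0.00116). Directly compared, all 3 were lower in cyp71-3 than in se-1, as were 32.2% of all genes. The log2 difference was -1.48 for BHLH101, -0.88 for BHLH100 and -0.84 for BHLH39 (limma adjusted p = 2.39e-08, 5.84e-07 and 3.18e-06).

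BHLH38 (chromosome 3, chr3:21084035-21085245, minus strand, 2 exons) moved in the opposite direction. It was at 14.28, 15.34 and 14.62 FPKM in cyp71-3, 7.43, 6.60 and 7.64 in se-1 and 9.45, 9.10 and 9.19 in Col-0. It rose in cyp71-3 (0.62 ± 0.06, limma adjusted p = 6.5e-06) and fell in se-1 (-0.32 ± 0.06, limma adjusted p = 0.00154), and cyp71-3 had 2.04 times the level of se-1. Of the 4 Ib genes it was the highest in cyp71-3 and the lowest in se-1. BHLH38 lies just downstream of BHLH39 on the same strand, with 1144 bases between them. The 4 Ib genes together summed to 40.46 to 42.63 FPKM in cyp71-3, 63.72 to 71.17 in se-1 and 48.75 to 49.77 in Col-0.

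The annotation bears on how BHLH38 was measured. The 3' end of BHLH38 overlaps that of AT3G56960, a protein-coding gene on the opposite strand, over 386 bases or 35.7% of the exonic length of BHLH38. Whether fragments were counted by strand is not given in the sources used here. AT3G56960 was at 3.47 to 4.12 FPKM in cyp71-3, 1.50 to 1.94 in se-1 and 2.04 to 2.47 in Col-0. It rose in cyp71-3 (0.56 ± 0.11, limma adjusted p = 0.000793) and fell in se-1 (-0.32 ± 0.11, limma adjusted p = 0.0299), as BHLH38 did, at a lower level per length. Without strand, fragments of the shared stretch cannot be told apart, and their part in the BHLH38 result was not tested. BHLH101 overlaps AT5G04140 on the opposite strand over 79 exonic bases, 7.29% of its own. AT5G04140 was at 339.72 to 359.91 FPKM in cyp71-3, 287.52 to 368.92 in se-1 and 443.33 to 466.77 in Col-0, called lower in both mutants (-0.39 ± 0.07 and -0.52 ± 0.07, limma adjusted p = 0.000696 and 0.000122). BHLH101 fell in cyp71-3 as well and rose in se-1, and the part of the overlap was not tested. The Ib genes share no exonic window of 50 bases; the longest identical run was 34 bases, between BHLH38 and BHLH39.

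**Figure D4:**
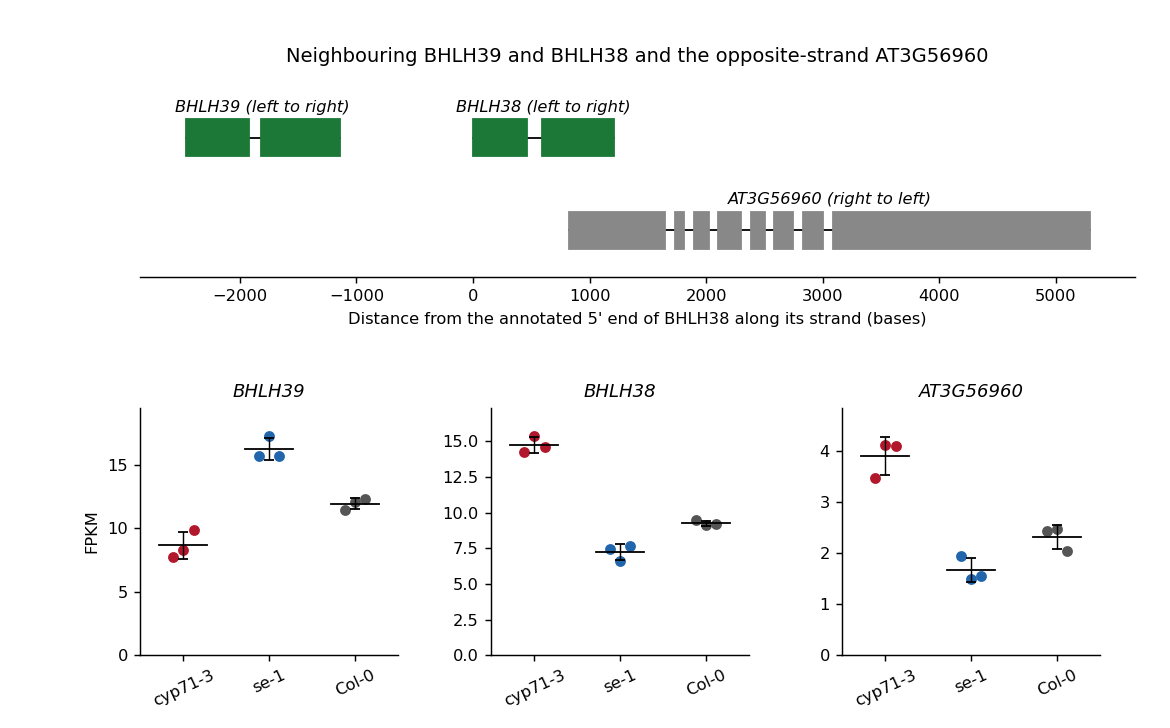
Top, exons (boxes) of BHLH39, BHLH38 and the opposite-strand AT3G56960 by distance in bases from the annotated 5' end of BHLH38, along its strand. Bottom, FPKM of each gene by library, with mean and SD of 3: BHLH38 and AT3G56960 are highest in cyp71-3 and lowest in se-1, and BHLH39 is lowest in cyp71-3 and highest in se-1.

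Upstream sequences of this neighbouring pair, of BHLH100 and of BTS are shown because bHLH proteins bind the hexamer CANNTG (E-box), of which CACGTG is the form called the G-box. Each is the 300 bases before the annotated gene start, from RefSeq (TAIR10.1), 5' to 3' on the gene's strand, with every CACGTG in capitals. The regions are chr3:21085246-21085545 for BHLH38, chr3:21087711-21088010 for BHLH39 and chr2:17199455-17199754 for BHLH100, all on the minus strand, and chr3:6273666-6273965 for BTS on the plus strand.
BHLH38: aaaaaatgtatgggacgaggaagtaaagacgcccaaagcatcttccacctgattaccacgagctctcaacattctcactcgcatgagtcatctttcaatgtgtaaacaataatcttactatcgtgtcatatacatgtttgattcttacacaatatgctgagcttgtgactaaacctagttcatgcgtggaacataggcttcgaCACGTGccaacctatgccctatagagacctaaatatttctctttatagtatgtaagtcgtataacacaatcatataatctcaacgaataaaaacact
BHLH39: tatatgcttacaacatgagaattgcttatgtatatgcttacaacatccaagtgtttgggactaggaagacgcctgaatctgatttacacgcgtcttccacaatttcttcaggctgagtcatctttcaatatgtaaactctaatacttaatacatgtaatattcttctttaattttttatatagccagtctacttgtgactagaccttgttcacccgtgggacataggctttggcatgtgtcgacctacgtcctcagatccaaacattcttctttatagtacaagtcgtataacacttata
BHLH100: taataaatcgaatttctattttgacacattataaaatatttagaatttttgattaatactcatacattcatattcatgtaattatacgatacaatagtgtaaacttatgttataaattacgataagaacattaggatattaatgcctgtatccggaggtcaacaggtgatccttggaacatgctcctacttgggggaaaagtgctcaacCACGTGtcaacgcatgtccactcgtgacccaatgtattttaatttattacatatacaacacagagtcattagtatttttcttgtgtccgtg
BTS: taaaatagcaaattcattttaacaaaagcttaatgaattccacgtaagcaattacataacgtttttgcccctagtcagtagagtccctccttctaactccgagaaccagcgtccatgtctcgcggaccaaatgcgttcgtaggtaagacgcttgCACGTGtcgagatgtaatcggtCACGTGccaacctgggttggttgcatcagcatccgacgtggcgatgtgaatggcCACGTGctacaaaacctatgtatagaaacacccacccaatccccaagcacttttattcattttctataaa
Searched on both strands, CACGTG was found in 3 of the 10 windows. It stands once before BHLH38 (97 bases from the start), once before BHLH100 (91 bases) and 3 times before BTS (146, 124 and 70 bases). Of the 27443 windows of this length before protein-coding genes, 7.09% hold it, and 61.9% hold any CANNTG, G-boxes included. Among the 10 windows, any CANNTG was found before BHLH38, BHLH39, BHLH100, FIT and BTS. It was not found before BHLH101, PYE, IRT1, FRO2 and FER1. In a local alignment, 250 bases of the BHLH38 and BHLH39 windows were paired, with 75.6% identity. Gaps were left out of both values. Where BHLH38 has its G-box, BHLH39 has CATGTG, the substitution C3T (BHLH38 first, counted from the 5' end of the hexamer). CATGTG is still a CANNTG, and the BHLH38 and BHLH39 windows hold 2 E-boxes each, the G-box included. The hexamers are in capitals.
BHLH38: taggcttcgaCACGTGccaacctatg
BHLH39: taggctttggCATGTGtcgacctacg
Of the 3 genes with a CACGTG, BHLH38 was higher and BHLH100 and BTS lower in cyp71-3 than in Col-0. No binding was measured, and a match describes the letters only.

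BTS and PYE, the negative regulators, fell in cyp71-3 and did not pass the test in se-1. BTS (chromosome 3, chr3:6273966-6280562, plus strand, 14 exons) was at 43.58, 44.53 and 45.76 FPKM in cyp71-3, 115.62, 101.80 and 93.39 in se-1 and 100.94, 106.20 and 105.43 in Col-0. Every cyp71-3 library lay below every other, and the se-1 libraries spread to both sides of Col-0. In cyp71-3 the level of BTS was 2.34-fold lower than in Col-0 (-1.21 ± 0.06, limma adjusted p = 2.91e-08), the largest fall of the 10 genes. In se-1 the difference was -0.01 (95% interval -0.15 to 0.13, limma adjusted p = 0.878). PYE (chromosome 3, chr3:17567126-17569394, plus strand, 7 exons) was at 19.84, 17.32 and 21.23 FPKM in cyp71-3, 33.72, 35.30 and 34.98 in se-1 and 35.63, 35.66 and 35.37 in Col-0. It fell by 0.84 ± 0.06 in cyp71-3 (limma adjusted p = 4.39e-07), where no library reached those of se-1 or Col-0. In se-1 the difference was -0.04 (95% interval -0.17 to 0.10, limma adjusted p = 0.661), although all 3 libraries lay just below those of Col-0. The direct log2 difference of cyp71-3 and se-1 was -1.19 for BTS and -0.81 for PYE (limma adjusted p = 3.19e-08 and 6.89e-07).

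FER1 (chromosome 5, chr5:227953-230051, minus strand, 8 exons), a plastid ferritin gene, rose in cyp71-3 and fell in se-1. It was at 182.32, 189.88 and 182.88 FPKM in cyp71-3, 102.68, 117.74 and 111.91 in se-1 and 127.54, 131.91 and 128.94 in Col-0, with no overlap between genotypes. The change was 0.51 ± 0.05 in cyp71-3 (limma adjusted p = 2.16e-06) and -0.23 ± 0.05 in se-1 (limma adjusted p = 0.00181), and cyp71-3 had 1.67 times the level of se-1 (limma adjusted p = 1.14e-07). AT5G01595, a long noncoding RNA gene, spans part of FER1 on the other strand and shares 0 exonic bases with it. Of the other ferritin genes, FER2, the ferritin of seeds, averaged 4.87 ± 0.30 FPKM in cyp71-3, 2.92 ± 0.48 in se-1 and 1.84 ± 0.25 in Col-0. It was called higher in both mutants, at 2.65 and 1.59 times Col-0 (limma adjusted p = 8.77e-06 and 0.00511). FER4 averaged 35.9 ± 2.87 FPKM in cyp71-3, 23.7 ± 1.45 in se-1 and 30.5 ± 2.04 in Col-0, higher in cyp71-3 and lower in se-1 (limma adjusted p = 0.0143 and 0.0015), as FER1 was. FER4 overlaps AT2G40290 on the same strand over 118 exonic bases, 9.42% of its own, and the part of the overlap was not tested. FER3 averaged 53.4 ± 1.01 FPKM in cyp71-3, 50.7 ± 2.74 in se-1 and 51.6 ± 1.06 in Col-0 and did not pass in either mutant, though it was called in cyp71-3 under quantile normalization. No ferritin pair shares an exonic window of 50 bases.

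Beyond the 10 genes, 51 genes of the iron pathway were listed, of which 46 had a mean FPKM of at least 1. In cyp71-3, 13 were higher, 24 lower and 9 did not pass, 80.4% called beside 63.3% of all genes. In se-1, 15 were higher, 15 lower and 16 did not pass, 65.2% called beside 50.2%. Between the mutants, 11 were higher and 25 lower in cyp71-3, 78.3% called beside 62.2%. The median log2 fold change of the 46 was -0.18 in cyp71-3 and 0.05 in se-1 against Col-0, where that of all genes was -0.01 and 0.00.

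**Figure D5:**
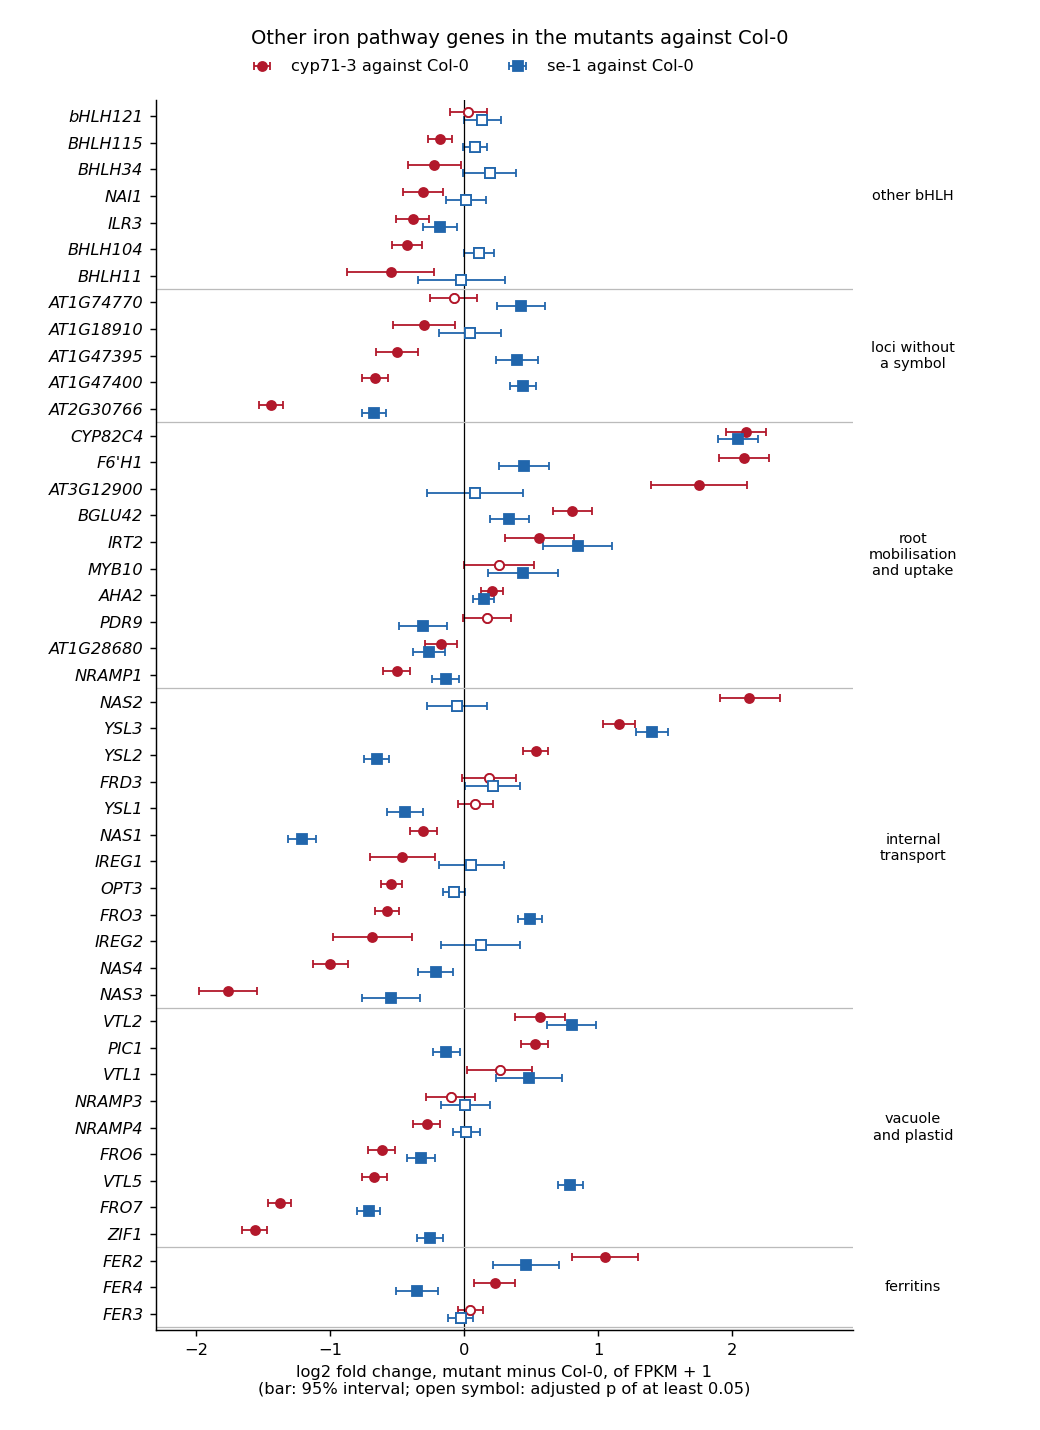
Log2 fold change of FPKM + 1 against Col-0 for the 46 tested pathway genes by list and mutant, with 95% intervals; open symbols did not pass an adjusted p of 0.05. CYP82C4 and YSL3 lie to the right in both mutants, NAS2 to the right in cyp71-3 and at -0.06 in se-1, and VTL5 and FRO3 left of 0 in cyp71-3 and right of it in se-1.

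Of 10 tested genes that mobilise iron around the root or take it up, 6 rose and 2 fell in cyp71-3, where 30.6% of all genes rose and 32.7% fell. In se-1, 6 rose and 3 fell, where 25.1% of all genes rose and 25.1% fell. CYP82C4, a cytochrome P450 gene of coumarin synthesis, averaged 13.4 ± 0.68 FPKM in cyp71-3, 12.8 ± 0.03 in se-1 and 2.36 ± 0.21 in Col-0. That was 5.69 times Col-0 in cyp71-3 and 5.45 times in se-1 (limma adjusted p = 6.09e-10 and 2.25e-09). F6'H1, which makes the coumarin precursor, averaged 32.8 ± 1.98 FPKM in cyp71-3, 9.86 ± 0.88 in se-1 and 6.97 ± 0.80 in Col-0, so that cyp71-3 had 3.33 times the level of se-1 (limma adjusted p = 2.54e-08). AT3G12900, an oxygenase gene, was at 5.07, 3.93 and 3.72 FPKM in cyp71-3, 0.82, 0.70 and 0.42 in se-1 and 0.54, 0.30 and 0.85 in Col-0. It was called higher in cyp71-3 (1.75 ± 0.16, limma adjusted p = 2.8e-06), and the mutants differed by 1.67 ± 0.16 (limma adjusted p = 4.47e-06). IRT2, the neighbour and relative of IRT1, averaged 1.47 ± 0.19 FPKM in cyp71-3, 2.01 ± 0.13 in se-1 and 0.68 ± 0.12 in Col-0, higher in both mutants (limma adjusted p = 0.00133 and 0.000106). Among the falls, NRAMP1, a root manganese and iron transporter gene, was lower by 0.50 in cyp71-3 and 0.14 in se-1 on the log2 scale (limma adjusted p = 2.32e-06 and 0.0277). PDR9, a coumarin exporter gene, fell in se-1 (-0.31 ± 0.08, limma adjusted p = 0.00787). AT1G28680 was called lower in both mutants, but 73.9% of its exonic length overlaps an antisense gene.

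Of the 7 other bHLH genes tested, 6 fell in cyp71-3 and 0 rose, where 32.7% of all genes fell. In se-1, where 50.2% of all genes were called, 1 of the 7 passed, ILR3 (-0.18 ± 0.06, limma adjusted p = 0.0211). BHLH104, an activator of the Ib genes, averaged 29.3 ± 2.04 FPKM in cyp71-3, 42.9 ± 1.16 in se-1 and 39.7 ± 0.84 in Col-0 (in cyp71-3, -0.43 ± 0.05, limma adjusted p = 2.16e-05). ILR3, another such activator, averaged 72.5 ± 5.05 FPKM in cyp71-3, 83.7 ± 5.62 in se-1 and 94.9 ± 2.36 in Col-0. BHLH11, a repressor of iron uptake, was low throughout, at 2.01 ± 0.54 FPKM in cyp71-3, 3.30 ± 0.42 in se-1 and 3.39 ± 0.67 in Col-0, and fell in cyp71-3 (limma adjusted p = 0.00696); 14.1% of its exonic length overlaps a gene on the other strand. The 3 genes of this list that were not tested, AT2G22750, AT2G22760 and AT4G37850, reached at most 0.26 FPKM in any library, and the uptake regulator gene MYB72 and the vacuolar importer gene VIT1 at most 0.36 and 0.27.

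A further 5 loci carry no symbol in the RefSeq annotation. AT2G30766 averaged 32.7 ± 1.21 FPKM in cyp71-3, 56.4 ± 2.26 in se-1 and 90.7 ± 1.13 in Col-0, a fall of 1.44 ± 0.04 in cyp71-3 and of 0.68 ± 0.04 in se-1 (limma adjusted p = 2.79e-10 and 2.03e-07); 16.5% of its exonic length overlaps AT2G30770 on the other strand. AT1G47400 averaged 19.2 ± 0.32 FPKM in cyp71-3, 42.5 ± 1.75 in se-1 and 31.1 ± 0.85 in Col-0, and AT1G47395 19.1 ± 0.95 FPKM in cyp71-3, 36.5 ± 1.98 in se-1 and 27.6 ± 2.84 in Col-0. Both fell in cyp71-3 (limma adjusted p = 1.73e-07 and 7.78e-05) and rose in se-1 (limma adjusted p = 9.12e-06 and 0.000707), as BHLH39, BHLH100 and BHLH101 did. They share 10 of 730 exonic windows of 50 bases, so some fragments may be divided between them. AT1G74770 rose in se-1 (0.43 ± 0.08, limma adjusted p = 0.00111), and AT1G18910 fell in cyp71-3 (-0.30 ± 0.11, limma adjusted p = 0.0273). Both are annotated as zinc-binding proteins. A gene on the other strand overlaps 10.5% of the exonic length of AT1G74770.

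Genes of transport within the plant differed by family member. NAS genes encode synthases of nicotianamine, a metal chelator, and NAS2 averaged 22.0 ± 1.99 FPKM in cyp71-3, 4.07 ± 0.66 in se-1 and 4.25 ± 0.36 in Col-0. It rose by 2.13 ± 0.10 in cyp71-3 (limma adjusted p = 1.3e-08). NAS3 averaged 1.65 ± 0.26 FPKM in cyp71-3, 5.14 ± 0.21 in se-1 and 7.99 ± 0.89 in Col-0 and NAS4 21.4 ± 1.67 FPKM in cyp71-3, 37.6 ± 1.98 in se-1 and 43.7 ± 1.53 in Col-0, called lower in both mutants (the largest limma adjusted p of the 4 was 0.0114). NAS1 averaged 53.7 ± 0.62 FPKM in cyp71-3, 28.2 ± 0.85 in se-1 and 66.6 ± 4.01 in Col-0, with the larger fall in se-1 (-1.21 ± 0.05, limma adjusted p = 5.76e-09; direct difference 0.91 ± 0.05, limma adjusted p = 2.51e-08). YSL genes encode transporters of metal bound to nicotianamine. YSL3 rose in both mutants, averaging 40.9 ± 0.44 FPKM in cyp71-3, 48.8 ± 3.06 in se-1 and 17.8 ± 0.89 in Col-0 (limma adjusted p = 9.32e-09 and 5.17e-09). YSL2 rose in cyp71-3 and fell in se-1, averaging 64.4 ± 0.81 FPKM in cyp71-3, 27.7 ± 1.51 in se-1 and 44.2 ± 0.56 in Col-0 (limma adjusted p = 8.56e-07 and 3.35e-07). FRO3, a ferric reductase gene of mitochondria, fell in cyp71-3 and rose in se-1, averaging 25.4 ± 0.82 FPKM in cyp71-3, 54.4 ± 1.11 in se-1 and 38.4 ± 1.07 in Col-0 (limma adjusted p = 3.03e-07 and 2.14e-06). Of the 12 genes, 3 were higher and 7 lower in cyp71-3, and 2 higher and 5 lower in se-1. That is 83.3% and 58.3% called, beside 63.3% and 50.2% of all genes.

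The list of genes of iron in vacuoles and plastids also counts FRO6, the neighbour of the chloroplast reductase gene FRO7. Of the 9 genes tested on this list, 2 were higher and 5 lower in cyp71-3, and 3 higher and 4 lower in se-1. That is 77.8% called in each, beside 63.3% of all genes in cyp71-3 and 50.2% in se-1. ZIF1, a vacuolar carrier of nicotianamine, averaged 40.3 ± 1.94 FPKM in cyp71-3, 101 ± 2.74 in se-1 and 121 ± 4.02 in Col-0, with a fall of 1.56 ± 0.04 in cyp71-3 (limma adjusted p = 1.97e-10). It was called lower in se-1 too (-0.25 ± 0.04, limma adjusted p = 0.00051). VTL5, a vacuolar iron transporter-like gene, averaged 26.8 ± 1.11 FPKM in cyp71-3, 75.6 ± 0.65 in se-1 and 43.3 ± 1.54 in Col-0, so that it fell in cyp71-3 and rose in se-1 (limma adjusted p = 1.21e-07 and 6.74e-08). Its relative VTL2 rose in both, by 0.57 ± 0.08 and 0.80 ± 0.08 (limma adjusted p = 0.000126 and 1.35e-05). FRO7, the ferric reductase gene of chloroplasts, averaged 29.2 ± 0.28 FPKM in cyp71-3, 46.7 ± 1.52 in se-1 and 77.3 ± 2.02 in Col-0, and its neighbour FRO6 was called lower in both mutants too. The pair shares 384 of 2874 exonic windows of 50 bases, so their separate values are uncertain. PIC1, a permease gene of the chloroplast envelope, rose in cyp71-3 (0.53 ± 0.05, limma adjusted p = 1.51e-06) and fell in se-1 (-0.13 ± 0.05, limma adjusted p = 0.0288).

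Genes whose log2 values ran most like those of 4 iron genes over the 9 libraries were sought among genes spanning at least 1 on that scale. The points come from 3 genotypes and are not independent, so r is given as a description. For IRT1 they were XTH14 (r = 0.996), MLP28 (0.995) and SIAR1 (0.994), and 59 of 2293 candidates lay above 0.95. For BHLH39 they were AT3G25030 (r = 0.992), AT1G02810 (0.987) and AT2G31585 (0.983), with 138 above 0.95. For BTS they were AT5G19900 (r = 0.997), UGT73B1 (0.997) and ORG1 (0.996), with 231 above 0.95. For FER1 they were AT4G08570 (r = 0.994), AT5G23820 (0.991) and DIN2 (0.991), with 168 above 0.95.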

How the data were processed

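The 9 libraries were assigned to genotypes by the genotype label. According to the labels' protocols, bead-captured mRNA of TRIzol extracts was fragmented and amplified by PCR. The deposited values are the authors' FPKM per gene. The submitters' processing notes name STAR 2.7.2b, Trim Galore 0.6.7, Cuffdiff, Cuffnorm and the build TAIR10. Their roles, the strand setting and how libraries were scaled: not given in the sources used here. Such values shift together when abundant genes change, and hold no counts, so no count test was run.

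log2(FPKM + 1) of the 19180 genes with a mean FPKM of at least 1 was fitted over the 3 genotypes together (limma 3.58.1, R 4.3.3) with moderated variances, an intensity trend, 6 residual degrees of freedom and Benjamini-Hochberg adjustment, two-sided. The fit was also run on simulated data with independent noise and few changed genes. That run cannot show that the p-values hold here, where many genes were called and the spread may be technical. The text names the 10 genes and, per pathway list, the 2 largest called rises and falls of a comparison and every gene of lists of at most 5; the markers EXPA7 and CASP1 and a few more listed genes were named after their values were seen. The genes and lists were chosen with earlier results of these data known. Positions, symbols and sequences came from RefSeq TAIR10.1, read with Python 3.11.15 and Biopython 1.88. Depth in fragments is unknown. Alternatives were other pseudocounts, filters and scalings, no intensity trend, 2 genotypes only, a replicate block and leaving out each library. Same-numbered libraries deviated with r between -0.137 and 0.043, so no large shared deviation by number was seen. Such values cannot show whether same-numbered libraries were prepared together, which the labels do not say. The largest r joined libraries of different numbers: Col-0 replicate 2 with cyp71-3 replicate 1 (0.152) and with se-1 replicate 1 (0.132). Col-0 replicate 2, cyp71-3 replicate 1 and se-1 replicate 1 had chloroplast-encoded shares of 1.96%, 3.44% and 1.87%. That of se-1 replicate 3 was 1.04%, and the other libraries were at 0.0551% or less. Yet r was 0.019 between cyp71-3 replicate 1 and se-1 replicate 1, and 0.007 between se-1 replicate 3 and Col-0 replicate 2. The replicate block does not model these correlations, and their cause was not tested.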

Additional observations from a re-analysis of the deposited data

How the results depend on the processing

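Under the 18 alternatives run, every count of called iron or pathway genes stayed within 1.5 times its value above, and 535 of 540 fold changes of the 10 genes kept their direction and their side of the threshold. BHLH100 in cyp71-3 lost its call without Col-0 replicate 2 (-0.19, limma adjusted p = 0.0539), so 9 to 10 of the 10 genes were called there. The 4 reversals concern differences that had not passed: BTS in se-1 was at 0.007 under quantile normalization and ran between -0.094 and 0.058 with 1 library left out, and FIT between cyp71-3 and se-1 ran between -0.101 and 0.014. The cause was not tested. Pathway calls numbered 29 to 38 in cyp71-3, 25 to 32 in se-1 and 28 to 39 between the mutants. Calls over all genes numbered 9681 to 12957, 7903 to 10026 and 9393 to 12847 in the same order. The 29 in cyp71-3 and the 25 in se-1 came with the filter at a mean FPKM of at least 5, which leaves fewer genes to test. With 1 library left out, pathway calls numbered 34 to 38, 27 to 32 and 34 to 38. No called listed gene changed direction under median centring or quantile normalization, but the second no longer called BHLH34 and AT1G28680 in cyp71-3, NRAMP1 in se-1 and ILR3 between the mutants. It newly called FER3 in cyp71-3, and AHA2, AT1G28680, IRT2 and FER3 between the mutants; median centring newly called IRT2 between the mutants.

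The labels tie replicate numbers to no shared batch. With the number as a replicate block, 10, 8 and 9 of the 10 genes were called in cyp71-3 against Col-0, se-1 against Col-0 and cyp71-3 against se-1, as without it, and 36, 29 and 36 pathway genes. Of the 19180 genes tested, the block left 11864, 9238 and 11572 called in the same order. The files hold no counts, so the precision of values near 1 FPKM, such as those of IRT2 and BHLH11, rests on the spread of 3 libraries alone.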
